A study of Mus musculus with 20 samples.

Results

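The 8 genes described here are Sds, Sdsl, Hal, Tat, Gls2, Cdh1, Pigr and Cyp2f2, a set of periportal and amino acid catabolic genes of the mouse liver. They were taken by symbol from a table of 46095 genes. Each symbol matched 1 entry, and all 8 members were among the 14440 genes that passed a filter on low counts. Whole-liver RNA was sequenced from 20 mice aged 31 to 33 weeks, with 4 groups of 5 mice. Wild-type (WT) mice were given chow or the NASH diet, which brings on non-alcoholic steatohepatitis, and Pck1-cKO mice, called KO here, were given the same diets, each for 24 weeks. Pck1 encodes the cytosolic phosphoenolpyruvate carboxykinase of gluconeogenesis, and the study's purpose was to examine its role in diet-induced steatohepatitis. The series title gives the knockout as liver-specific. For the Cre line, the allele and the composition of the NASH diet, nothing is given in the sources used here.

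Hepatocytes are not alike along the liver lobule. Those around the portal vein receive oxygen-rich and nutrient-rich blood and are known for gluconeogenesis, urea synthesis and the breakdown of amino acids, while those around the central vein are known for glutamine synthesis and drug metabolism. Breakdown of serine, histidine and glutamine supplies carbon for gluconeogenesis, and glucagon, glucocorticoids and fasting are known to raise several of the enzymes. In whole-liver RNA, fewer cells of a type and less RNA per cell cannot be told apart.

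The libraries held 9958935 to 20601955 counts. Pck1, the targeted gene, was at 3573 ± 1139 CPM (counts set to the same scaled library size, mean ± SD, n = 5) in WT chow and 626 ± 175 in KO chow, and at 2290 ± 511 in WT NASH and 445 ± 112 in KO NASH, with no overlap between genotypes on either diet. Its log2 fold change was -2.51 on chow (edgeR adjusted p = 0.0001096) and -2.36 on the NASH diet (edgeR adjusted p = 6.128e-05). Summed CPM of 5 hepatocyte markers (Alb, Ttr, Apoa1, Hnf4a and Ahsg) was 43790 to 124800 in every library. Of 5 red blood cell markers, Hbb-bs and Hbb-bt fell on the NASH diet in both genotypes. Among markers of other cells, the following were called. With the diet in WT, Cd68, 1 of 6 macrophage markers, rose, while the median log2 fold change of the 6 was 0.02. Cd3e, 1 of 4 T and NK cell markers, also rose there, and Cd68 rose in KO chow against WT chow. In KO NASH against WT NASH, Lyve1 and Kdr (2 of 5 endothelial markers) rose and Cd3g (T cells) fell. Cela1 fell there too, the only 1 of 6 acinar pancreas markers tested, while Ctrb1, another, held at most 3 counts in any library. With the diet in KO, Sox9 (bile ducts) and Col1a1 (1 of 6 stellate and fibroblast markers) rose. The part of these in the members' values was not tested. Sex, which the labels do not give, was read from the counts. All 5 WT chow mice were male, whereas replicate 4 was the only male among 5 WT NASH mice. The females among KO mice were replicates 3 and 5 on chow and replicate 2 on the NASH diet. A length slope was taken from each gene's log2 CPM minus that gene's mean over the 20 libraries. In 6 libraries (WT chow 3, 4 and 5, WT NASH 4, KO chow 4 and 5) longer genes were lower relative to those means. Their slopes were -0.343 to -0.247 in log2 CPM per doubling of exonic length. In the other 14 the slope was 0.0099 to 0.194. Diet and sex can therefore not be told apart in WT mice beyond what 1 male on the NASH diet allows.

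Positions are those of GENCODE M21 gene models on GRCm38. Sds (chr5:120476526-120483932, plus strand) and Sdsl (chr5:120458186-120472810, minus strand) are neighbours that are read away from each other, with 3715 bases and 0 annotated genes between them. Hal (chr10:93488768-93519304) and Gls2 (chr10:128194457-128210004) share a chromosome, as do Tat (chr8:109990437-109999803) and Cdh1 (chr8:106603351-106670246). Cyp2f2 lies at chr7:27119909-27133660 and Pigr at chr1:130826684-130852249. Sds, Gls2 and Cyp2f2 overlap annotated genes on the opposite strand, and since the sources used here do not say whether counting used the strand, reads of those genes cannot be told apart from theirs.

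RefSeq promoter sequences (GRCm38.p6) matched 4 of the 8 members, namely Pigr, Cyp2f2, Tat and Hal. The 250 bases before the start of Tat, Hal and Pigr are printed because glucocorticoid, cAMP and clock genes are set beside the members further on. Capitals mark the motifs searched for on both strands, which are the CCAAT box, the TATA box TATAAA, the E-box CACGTG bound by clock factors, the glucocorticoid receptor half-site AGAACA and the cAMP response half-site TGACG. All 3 genes are on the plus strand, and the windows are chr8:109990186-109990435 for Tat, chr10:93488518-93488767 for Hal and chr1:130826434-130826683 for Pigr.
Tat: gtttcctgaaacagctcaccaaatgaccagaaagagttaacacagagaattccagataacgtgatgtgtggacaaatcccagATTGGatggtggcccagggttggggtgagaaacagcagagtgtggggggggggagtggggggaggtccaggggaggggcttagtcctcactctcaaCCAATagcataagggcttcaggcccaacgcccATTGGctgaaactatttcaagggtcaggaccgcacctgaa
Hal: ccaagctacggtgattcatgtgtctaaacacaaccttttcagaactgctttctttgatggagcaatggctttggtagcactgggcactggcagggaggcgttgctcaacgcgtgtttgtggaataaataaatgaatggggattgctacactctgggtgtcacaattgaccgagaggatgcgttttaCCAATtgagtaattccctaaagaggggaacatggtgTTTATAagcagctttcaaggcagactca
Pigr: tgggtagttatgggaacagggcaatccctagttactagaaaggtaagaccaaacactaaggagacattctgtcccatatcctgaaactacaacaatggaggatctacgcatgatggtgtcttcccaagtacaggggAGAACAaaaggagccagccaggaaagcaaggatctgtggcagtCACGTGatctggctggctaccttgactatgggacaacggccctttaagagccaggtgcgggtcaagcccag
Tat held 3 CCAAT matches, at 168, 72 and 40 bases before its start, and 2 of them are on the minus strand. Hal held 1 CCAAT match at 64 bases and 1 TATAAA match, on the minus strand, at 28 bases. Pigr held 1 CACGTG at 71 bases and 1 AGAACA at 114 bases. No motif overlapped another, and TGACG was in none of these windows nor in that of Cyp2f2, which held none of the 5 motifs. Among 32851 mouse promoters of the same length, 33.8% held CCAAT, 12.4% TATAAA, 6.02% CACGTG, 16.1% AGAACA and 17.8% TGACG.

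Per kilobase of exon, the mean level over the 20 libraries was highest for Tat, at 734 CPM per kb, followed by Pigr at 399.6, Cyp2f2 at 265, Sds at 113, Gls2 at 80.2 and Hal at 51.5. Cdh1 at 7.81 and Sdsl at 6.86 CPM per kb were the low members. The spread over libraries did not follow the level. Cdh1 varied 9.41-fold between its highest and lowest library and Hal 7.81-fold, while Gls2 varied 1.95-fold and Sds, Cyp2f2, Tat, Pigr and Sdsl 4.03-fold to 5.48-fold. The plot of every library shows these values by sex and by the sign of the length slope.

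**Figure D1:**
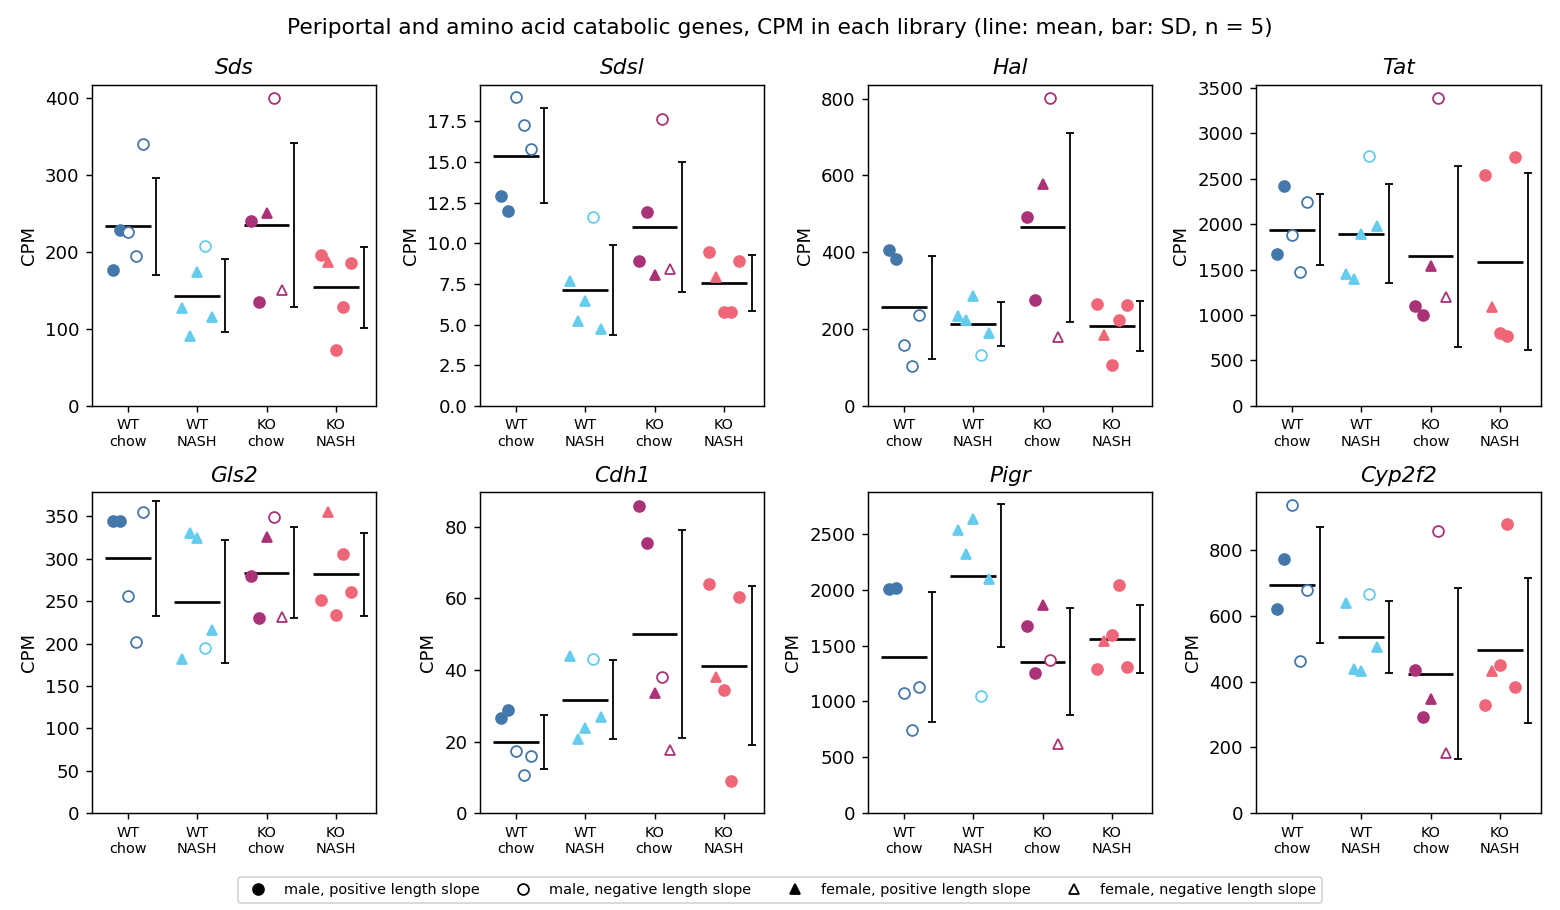
CPM of each of the 8 members in each of the 20 libraries on a linear axis from 0, by group, with circles for male and triangles for female libraries, filled symbols for a positive and open symbols for a negative length slope, and a line and bar for mean and SD (n = 5). Sdsl in WT NASH (4.71 to 11.6 CPM) lies below all WT chow libraries (11.97 to 19.0 CPM), whereas the groups of each other member overlap in that comparison. The share of all genes without overlap is not given here.

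Among the members, Sdsl alone passed the test, and in 1 comparison. It was lower in WT mice on the NASH diet than on chow, at 0.46 of the chow level. Sdsl encodes a serine dehydratase-like enzyme related to Sds. Its levels in WT chow replicates 1 to 5 were 12.9, 11.97, 19.0, 17.3 and 15.8 CPM, and in WT NASH they were 7.68, 5.22, 6.48, 11.6 and 4.71 CPM. The groups did not overlap, and the share of all genes without overlap is not given here. The WT NASH library nearest to WT chow was replicate 4, at 11.6 CPM, just under the lowest WT chow library at 11.97. Replicate 4 was the only male of its group and also the only library of negative length slope in it. The 4 females lay at 4.71 to 7.68 CPM. The log2 fold change was -1.12 (SE 0.27, 95% interval -1.67 to -0.57, edgeR adjusted p = 0.01655). With sex as a term the value was -0.75 (edgeR adjusted p = 0.2486) and in males alone, with a single WT NASH library, -0.43 (edgeR adjusted p = 0.6936). Leaving out WT chow 3, WT NASH 2 or WT NASH 5 also ended the call, with edgeR adjusted p values of 0.05256, 0.05512 and 0.05459. The call held with the length slope as a term (-0.99, edgeR adjusted p = 0.01092). It was lost with sex and slope both as terms (-0.64, edgeR adjusted p = 0.162). Over the libraries of positive slope it held (-1.03, edgeR adjusted p = 0.02529), but there all WT chow mice were male and all WT NASH mice female. The call was made in 28 of 34 alternatives, all with a negative value. Sdsl rests on 73 to 296 counts per library, the fewest of the members.

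In KO mice the Sdsl values were 8.89, 11.9, 8.07, 17.6 and 8.45 CPM on chow and 9.47, 7.91, 5.77, 5.75 and 8.89 CPM on the NASH diet. The KO chow values overlap those of all other groups, with replicate 4 the highest at 17.6. The diet difference in KO mice was -0.54 (95% interval -1.08 to 0.01, edgeR adjusted p = 0.2298), and the genotype difference was -0.49 on chow (95% interval -1.03 to 0.05) and 0.10 on the NASH diet (95% interval -0.45 to 0.65). The difference between the genotype effects on the 2 diets was 0.58 (95% interval -0.19 to 1.35, edgeR adjusted p = 0.7461), so a diet effect particular to WT mice was not shown.

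Sds encodes serine dehydratase, which turns serine into pyruvate and ammonia. Its values were 176, 229, 226, 195 and 339.6 CPM in WT chow and 127, 90.2, 174, 208 and 116 CPM in WT NASH. In KO mice they were 239.6, 134, 250.1, 400.3 and 150.2 CPM on chow and 195, 187, 73.1, 128 and 186 CPM on the NASH diet. The NASH means were below the chow means in both genotypes (233 ± 63.5 against 143 ± 47.3 in WT, 235 ± 106 against 154 ± 52.5 in KO), and the groups overlapped. The log2 fold change was -0.71 in WT (95% interval -1.37 to -0.04, edgeR adjusted p = 0.1996) and -0.61 in KO (95% interval -1.28 to 0.06, edgeR adjusted p = 0.2609), neither past the threshold. Between genotypes it was 0.01 on chow (95% interval -0.65 to 0.68) and 0.11 on the NASH diet (95% interval -0.56 to 0.77). The count ratio of Sds to its neighbour Sdsl had a median of 13.6 on chow and 17.9 on the NASH diet among WT libraries, and of 22.7 and 20.9 among KO libraries.

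Hal encodes histidine ammonia-lyase, the first enzyme of histidine breakdown. It was at 405, 382, 157, 102 and 235 CPM in WT chow and 233, 224, 287, 132 and 190.5 CPM in WT NASH. In KO chow it was at 491, 276, 577, 800.4 and 180.3 CPM and in KO NASH at 265, 185, 107, 223 and 263 CPM. KO chow held the 3 highest Hal values of the 20 libraries, yet its replicate 5, at 180.3, lay inside the range of every other group. The KO diet difference was -1.16 (95% interval -1.99 to -0.32, edgeR adjusted p = 0.1062), which did not pass in edgeR's quasi-likelihood test, while DESeq2 gave -1.18 (adjusted p = 0.03744) and limma voom -1.13 (adjusted p = 0.02559). With the length slope as a term it was -1.46 (edgeR adjusted p = 0.03055). With sex as a term it was -1.17 (edgeR adjusted p = 0.1063), and in males only -1.29. The call was made in 5 of 34 alternatives, all with a negative value. KO chow against WT chow gave 0.86 (95% interval 0.03 to 1.69, edgeR adjusted p = 0.2388). With the length slope as a term this genotype difference was 0.84 (edgeR adjusted p = 0.1389). Over the 14 libraries of positive slope it was 0.20 (edgeR adjusted p = 0.7923). Inside WT chow, Hal was at 381.5 and 404.6 CPM in the 2 libraries of positive slope and at 102.5 to 235.5 in the 3 of negative slope. The fit over positive slopes holds only the former 2 of WT chow, and why these fits gave unlike values was not tested.

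Tat encodes tyrosine aminotransferase, the first enzyme of tyrosine breakdown and a long-known target of the glucocorticoid receptor. It had the following values in WT mice: 1671, 2415, 1875, 1478 and 2246 CPM on chow and 1451, 1391, 1894, 2748 and 1976 CPM on the NASH diet. KO chow libraries were at 1095, 997, 1534, 3393 and 1203 CPM and KO NASH libraries at 2540.3, 1090.1, 799.5, 769 and 2740.0 CPM. KO chow replicate 4 stood far above the other 4 of its group, and KO NASH had replicates 1 and 5 at 2540.3 and 2740.0 CPM and the other 3 at 769 to 1090.1. The group means, 1937 ± 391, 1892 ± 544, 1644 ± 998 and 1588 ± 971 CPM, differed by less than these spreads. The largest difference was -0.25, for genotype on the NASH diet, with 95% intervals that reached from -1.06 to 0.77 over the 4 comparisons. The 2 high KO NASH libraries, replicates 1 and 5, were also the most alike pair within any group, with a chi-square per degree of freedom of 7.81 over genes where the next pair had 21.5. Their difference is above counting noise, which repeat libraries of 1 mouse could also exceed, and they were kept as 2 samples because the labels number them as separate mice. With the pair summed no call on a member changed, while 14 of 55 named calls in the gene lists were lost.

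Gls2 encodes the liver-type glutaminase, which releases ammonia from glutamine in periportal cells. WT chow libraries were at 345, 344, 257, 202 and 355 CPM and WT NASH libraries at 182, 329.6, 325, 194 and 216 CPM. KO libraries were at 280.1, 231, 325, 349 and 232 CPM on chow and 251, 355, 234, 305 and 261 CPM on the NASH diet. This was the steadiest member, with group means of 249 to 301 CPM and overlap between all groups. Its largest difference was -0.27 for the diet in WT mice (95% interval -0.74 to 0.20, edgeR adjusted p = 0.4962). The other 3 comparisons gave -0.09 (-0.55 to 0.38), 0.17 (-0.29 to 0.64) and -0.01 (-0.48 to 0.46), and over the 4 comparisons the 95% intervals reached from 0.60-fold to 1.56-fold.

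Cdh1 encodes E-cadherin, the adhesion molecule of epithelial cells, which in the lobule is stronger in periportal hepatocytes and is also made by bile duct cells. It was at 26.5, 28.7, 17.3, 10.6 and 16.1 CPM in WT chow and 43.9, 20.6, 23.9, 43.1 and 27.0 CPM in WT NASH. KO chow had 85.7, 75.6, 33.6, 38.0 and 17.7 CPM and KO NASH 64.0, 38.1, 34.4, 9.10 and 60.5 CPM. KO chow replicates 1 and 2 were the 2 highest of all libraries, replicate 5 lay within the WT chow range, and KO NASH replicate 4 was the lowest of the 20. KO chow against WT chow gave 1.33 (SE 0.45, 95% interval 0.39 to 2.27, edgeR adjusted p = 0.09056), 2.52-fold and short of the threshold. The call was made with sex as a term (1.52, adjusted p = 0.04521 by edgeR), with sex and length slope both as terms (1.29, edgeR adjusted p = 0.0244) and in males only (1.75, edgeR adjusted p = 0.04848). It was also made by DESeq2 (1.35, adjusted p = 0.03399), by limma voom (1.86, adjusted p = 0.009522) and without KO chow 5 (1.57, edgeR adjusted p = 0.0284) or KO NASH 4 (1.33, edgeR adjusted p = 0.04766). It was not made with the length slope alone as a term (1.08, edgeR adjusted p = 0.09603) or over the 14 libraries of positive slope (1.25, edgeR adjusted p = 0.2444). In all, 7 of 34 alternatives called it, all with a positive value. On the NASH diet the genotype difference was 0.38 (95% interval -0.54 to 1.31), and the difference between diets in the genotype effect was -0.95 (95% interval -2.26 to 0.36, edgeR adjusted p = 0.7666).

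Pigr encodes the polymeric immunoglobulin receptor, which carries IgA across hepatocytes and bile duct cells into bile. Its WT values were 2006, 2014, 1079, 745 and 1130.3 CPM on chow and 2536, 2318, 2630.3, 1053 and 2091 CPM on the NASH diet. In KO mice they were 1672, 1259, 1861, 1367 and 619.8 CPM on chow and 1294, 1544, 1591, 2044 and 1312 CPM on the NASH diet. Pigr followed the length slope of the libraries more closely than any other member (r = 0.68 over the 20 libraries, as a description), and the only low WT NASH library, replicate 4, was the one of negative slope and the only male. The diet difference in WT was 0.61 (95% interval -0.06 to 1.28, edgeR adjusted p = 0.2696) and the genotype difference on the NASH diet was -0.45 (95% interval -1.12 to 0.22, edgeR adjusted p = 0.4053). Over the 14 libraries of positive slope the latter was -0.62 (edgeR adjusted p = 0.01974), with 4 WT NASH libraries at 2091 to 2630 CPM against 5 KO NASH libraries at 1294 to 2044, and there the WT libraries were all female and the KO libraries were 4 males and 1 female. When sex was a term the value was -0.31 (edgeR adjusted p = 0.7179), and in males only, with 1 WT NASH library, it was 0.60 (edgeR adjusted p = 0.474). The diet value in WT was -0.43 in males only (edgeR adjusted p = 0.7541), so the sign of both differences turned in that fit. Of the bile duct genes Krt19 and Epcam, neither was called in any comparison, and they were at 0.22 to 2.49 CPM and 0.57 to 5.80 CPM over the libraries. Epcam was at 1.62 ± 0.64 CPM in KO chow and 3.41 ± 1.92 in KO NASH. Sox9, another bile duct gene, was called higher with the diet in KO, from 0.96 ± 0.59 to 3.48 ± 1.91 CPM. In WT it was at 2.05 ± 1.12 CPM on chow and 5.42 ± 0.92 on the NASH diet, without a call. A rise particular to KO was therefore not shown.

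Cyp2f2 encodes a cytochrome P450 of periportal hepatocytes and airway club cells. It was at 619, 773, 935, 462 and 679 CPM in WT chow and 638, 439, 432, 665 and 505 CPM in WT NASH. KO chow libraries had 435, 293, 348, 857 and 183 CPM and KO NASH libraries 328, 433, 449, 877 and 384 CPM. In each KO group replicate 4 stood above the rest, at 857 CPM on chow with the others at 183 to 435, and at 877 CPM on the NASH diet with the others at 328 to 449. KO chow against WT chow gave -0.71 (95% interval -1.43 to 0.00, edgeR adjusted p = 0.2611). Without KO chow 4 this was -1.14 (edgeR adjusted p = 0.03784), the only library whose absence brought a call for Cyp2f2. The other comparisons gave -0.37, -0.12 and 0.22, with edgeR adjusted p values of 0.5438, 0.8679 and 0.7104. In a list of 4 other P450 and mucosal genes, 2 fell in KO chow against WT chow (Cyp2b10 and Cyp2c29), beside 5.53% of all genes called. Cyp2c29 fell by 3.58 on the log2 scale (edgeR adjusted p = 0.001683), from 6867 ± 3293 to 575 ± 353 CPM.

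**Figure D2:**
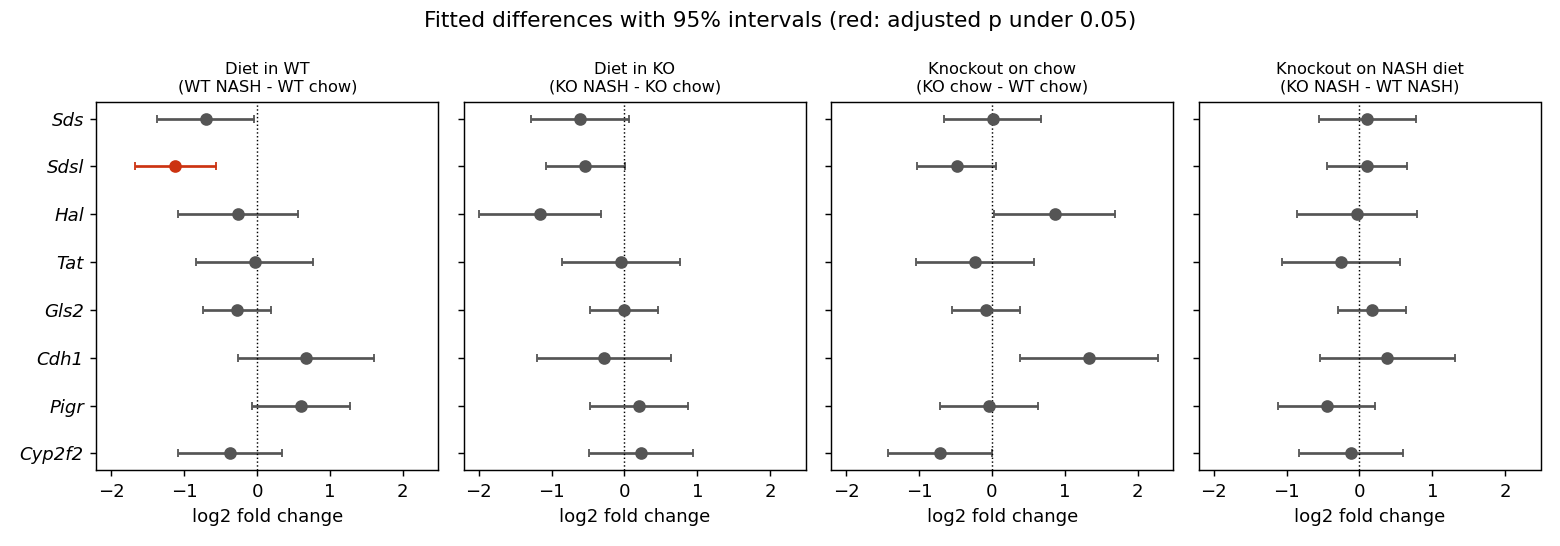
Log2 fold change of each member in the 4 comparisons, with 95% intervals from edgeR (20 libraries in 1 fit), red where the adjusted p was under 0.05. Sdsl in WT NASH against WT chow (-1.12) is the only red point, and 4 other intervals exclude 0 (Sds for the diet in WT, Hal and Cdh1 for genotype on chow, and Hal for the diet in KO).

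With 8 members, 1 call more or less is a large step in their share, and a share near that of all genes is no result about the members. In WT NASH against WT chow 1 of 8 members was called by edgeR (Sdsl, lower), beside 5.93% of the 14440 genes tested. At an unadjusted p under 0.05 there were 2 (Sds and Sdsl, both lower) beside 22.1%. DESeq2 called 1 beside 10.4%, and limma voom with quality weights called 3 (Sds, Sdsl and Pigr) beside 40.6%. The median log2 fold change was -0.27 over the members and 0.01 over all genes.

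Between genotypes on chow, edgeR called 0 of 8 members beside 5.53% of genes, with 2 (Hal and Cdh1, both higher) at an unadjusted p under 0.05 beside 19.4%. DESeq2 called Cdh1, 1 of 8 beside 9.63%, and voom called 4 (Sdsl, Hal, Cdh1 and Cyp2f2) beside 40.4%. On the NASH diet edgeR called 0 beside 9.65%, 0 at an unadjusted p beside 25.6%, DESeq2 called 0 beside 15.2%, and voom called 1 (Pigr) beside 23.8%. The members' medians were -0.06 on chow and 0.03 on the NASH diet. The absence of a call is not evidence that the members did not differ, since on chow, for example, the 95% interval of Cdh1 reached from 1.31-fold to 4.83-fold and that of Hal from 1.02-fold to 3.22-fold.

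For the diet in KO mice edgeR called 0 of 8 members beside 3.29% of genes. At an unadjusted p there was 1 (Hal, lower) beside 22.2%, and Hal was also the 1 called by DESeq2, beside 9.04%, and by voom, beside 12.7%. The difference between diets in the genotype effect gave 0 calls beside 0.139% in edgeR, 0 at an unadjusted p beside 8.25%, 0 by DESeq2 beside 1.31% and 3 by voom (Sdsl, Hal and Pigr) beside 13.5%. The 4 comparisons share groups, so that their values for a member are not independent of each other.

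**Figure D3:**
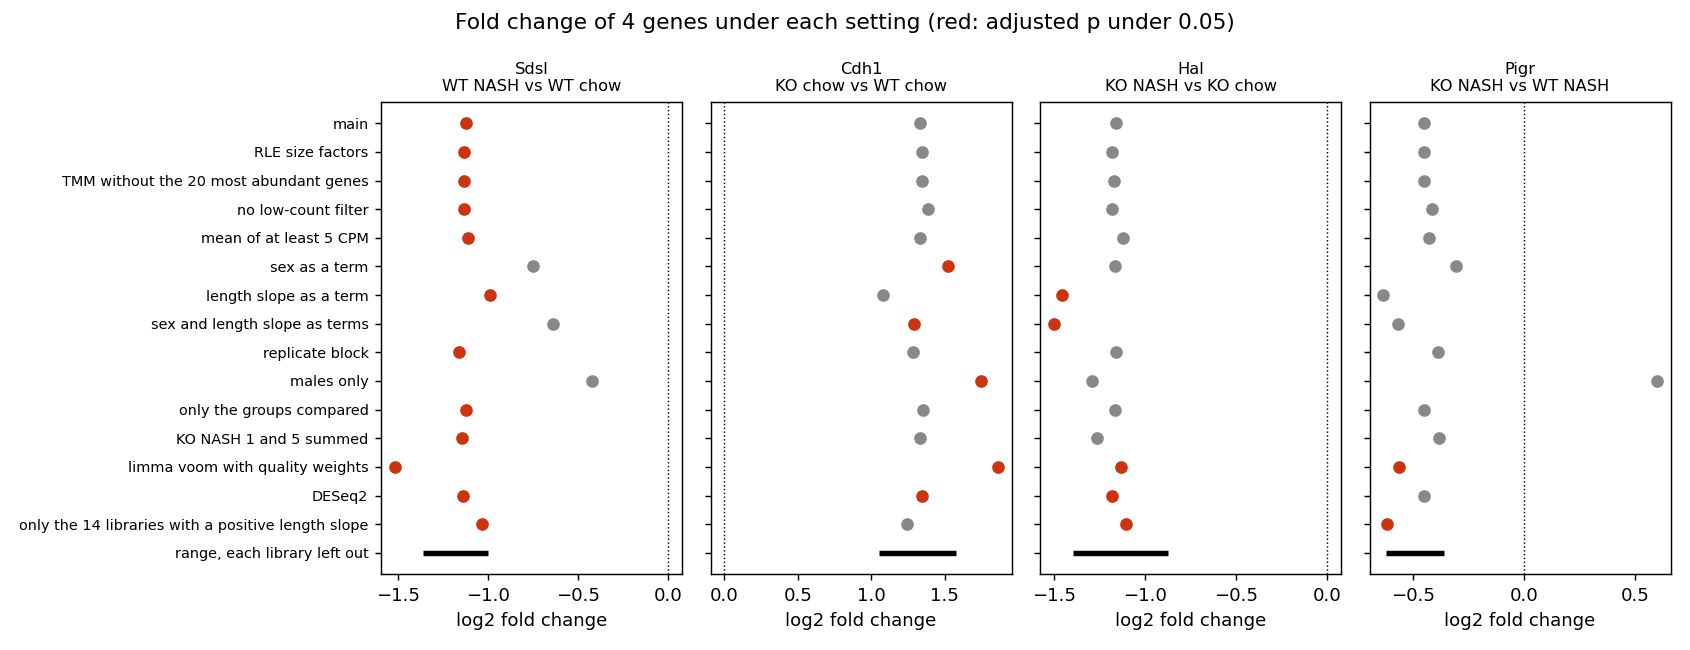
Log2 fold change of Sdsl (WT diet), Cdh1 (genotype on chow), Hal (KO diet) and Pigr (genotype on the NASH diet) as given in the text and under the 14 alternatives, with a black bar for the range over fits that leave out 1 library. Sdsl moves from -1.12 to -0.43 in males only, Cdh1 stays between 1.29 and 1.75 in the fits with sex terms or males only, and Hal lies between -1.50 and -1.10 in the alternatives where it passed.

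Of all genes, edgeR called 5.93% for the diet in WT and 3.29% for the diet in KO. For genotype it called 5.53% on chow and 9.65% on the NASH diet. In all gene lists below, a share near these is no result about the list. Of the other genes of amino acid breakdown, 46 were tested in 8 lists. In WT mice on the NASH diet 1 rose, 4 fell (Ftcd, Hpd, Hgd and Oat) and 41 were not called. Glud1, which releases ammonia from glutamate, was the 1 that rose, from 599.9 ± 113 to 1355 ± 135 CPM (log2 fold change 1.18, edgeR adjusted p = 0.003188), and with sex as a term its value was 1.00 (edgeR adjusted p = 0.07722). In KO mice on the NASH diet 0 rose and 5 fell (Agxt, Ftcd, Hpd, Hgd and Aass). Ftcd, the last enzyme of the pathway that Hal begins, fell by 1.14 on the log2 scale in KO, from 563 ± 139 to 255 ± 38.4 CPM (edgeR adjusted p = 0.01013). Aass, the first enzyme of lysine breakdown, fell by 1.86, from 1982 ± 1079 to 546 ± 153 CPM (edgeR adjusted p = 0.01013). Hpd and Hgd act after Tat in tyrosine breakdown. Both fell with the diet in each genotype, by 0.87 and 1.06 in WT and by 1.02 and 1.23 in KO, whereas the diet values of Tat were -0.03 and -0.05. These calls were less stable than the others given with values: in WT both were lost when sex was a term and without WT chow 5 or WT NASH 1, 2 or 5 (Hgd also without WT chow 3 or WT NASH 3), and in KO without KO chow 4 (Hgd also without KO NASH 4 or 5). The median of the 46 genes was -0.28 in WT and -0.12 in KO, beside 0.01 and -0.02 over all genes.

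Between genotypes on chow 2 of the 46 rose (Agxt and Bckdhb) and 2 fell (Glud1 and Afmid), beside 5.53% of all genes called. Agxt, which handles glyoxylate and serine, was at 288 ± 50.6 CPM in WT chow and 681 ± 197 in KO chow (log2 fold change 1.24, edgeR adjusted p = 0.00825). Afmid, of tryptophan breakdown, fell by 1.46, from 164 ± 68.8 to 59.7 ± 19.1 CPM (edgeR adjusted p = 0.01156). On the NASH diet 2 rose in KO (Bckdhb and Bckdk) and 2 fell (Glud1 and Haao), beside 9.65% of all genes called. Bckdk, the kinase that holds branched-chain amino acid breakdown in check, was at 7.61 ± 1.65 CPM in WT NASH and 13.1 ± 1.25 in KO NASH (log2 fold change 0.77, edgeR adjusted p = 0.008763). Glud1 fell there by 1.21, to 586 ± 135 CPM (edgeR adjusted p = 0.001802), while Gls2, the member that supplies glutamate, gave 0.17. For the difference between diets edgeR called 0 of the 46, with 1 at an unadjusted p under 0.05. Slc38a2, a carrier of small neutral amino acids, fell by 1.00 on the log2 scale in KO NASH against WT NASH, from 250.2 ± 41.9 to 125 ± 24.5 CPM (edgeR adjusted p = 0.006062), the only 1 of 8 listed transporters called there. Slc38a2 also fell in KO chow, and in WT on the NASH diet Slc38a4 fell and Slc1a4 rose.

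**Figure D4:**
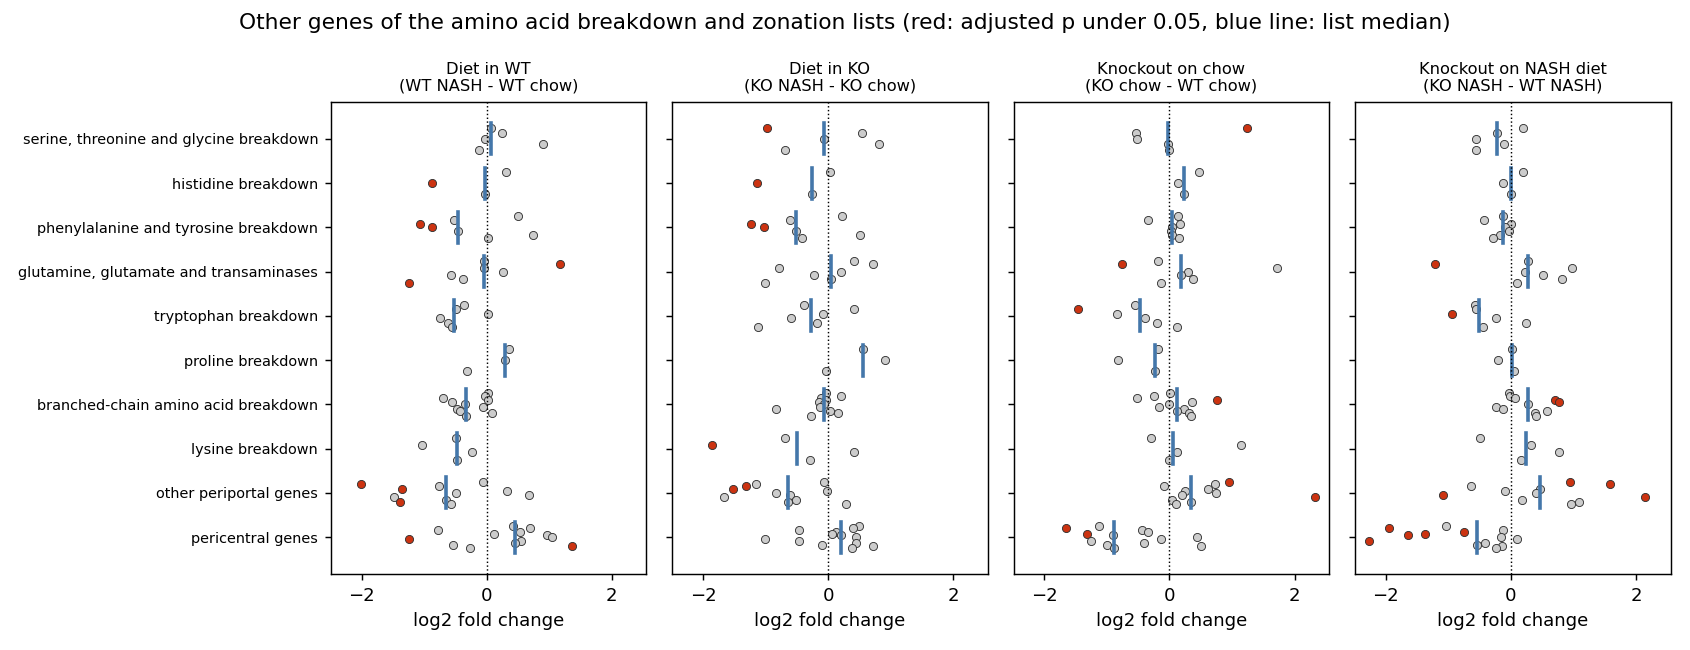
Log2 fold changes of genes other than the members in the 4 comparisons, for the 8 lists of amino acid breakdown, the other periportal genes and the pericentral genes. Points are grey where not called and red where the edgeR adjusted p was under 0.05, with the list's median in blue. In the 8 lists of amino acid breakdown most genes are grey, and the medians of the genes other than the members lie between -0.53 and 0.56.

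Of 11 other genes known for periportal expression, 0 rose and 3 fell in WT mice on the NASH diet. The 3 were Apoa4, Hsd17b13 and Asl, beside 5.93% of all genes called. In KO mice 0 rose and 2 fell (Arg1 and Asl), beside 3.29%. Apoa4 fell by 2.00 on the log2 scale in WT (edgeR adjusted p = 0.009086), and the value was -2.06 when sex was a term (edgeR adjusted p = 0.08209). Asl, of the urea cycle, fell by 1.51 in KO, from 1302 ± 264 to 456 ± 164 CPM (edgeR adjusted p = 0.01621). In KO against WT, 2 rose on chow (Etnppl and Aldh1b1), and on the NASH diet 3 rose (Apoa4, Etnppl and Aldh1b1) and 1 fell (Ctsc). The summed level of 18 periportal markers, 7 of the members among them, was 13320 to 15830 CPM on chow and 9234 to 11260 on the NASH diet among WT libraries. Among KO libraries it was 15940 to 21490 and 10060 to 12430, so the sums of the 2 diets did not overlap in either genotype. How often sums of other genes do so is not given here. Abundant genes weigh most in this sum. In WT, Apoa4 was at 2672 ± 937 CPM on chow and 667 ± 430 on the NASH diet, and Arg1 at 2550 ± 1035 and 1502 ± 827. Pigr, the most abundant member in the sum, was at 1395 ± 581 and 2126 ± 635. Of all 8 members, 6 had a lower and 2 a higher fitted value with the diet in WT. The sum is therefore no result about the members. The sum of the 13 pericentral markers did not overlap between diets in WT either (12860 to 22260 CPM on chow, 11050 to 12770 on the NASH diet). It overlapped in KO (7466 to 18070 and 7299 to 10850). Cyp2e1, the most abundant of the 13, was at 11291 ± 3030 CPM in WT chow and 6559 ± 1351 in WT NASH, and it weighs most in that sum. Gene by gene, the median log2 fold change for the diet in WT was -0.65 over the 11 other periportal genes. Over the 13 pericentral genes it was 0.45. In KO the medians were -0.64 and 0.21, and the difference between the lists was not tested.

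Of 13 pericentral genes, 2 fell in KO chow (Cyp1a2 and Gulo), beside 5.53% of all genes called. In KO NASH against WT NASH 5 fell, beside 9.65%. The 5 were Rgn, Cyp1a2, Gulo, Glul and Lgr5, of which Glul and Lgr5 are named although they lie outside the naming rule. Gulo, of the ascorbate pathway, fell by 1.32 on chow and by 1.37 on the NASH diet (edgeR adjusted p = 0.008016 and 0.004491), while no member passed the test in those comparisons. Rgn, a calcium-binding protein, fell on the NASH diet by 2.26, from 1722 ± 1009 to 359 ± 127 CPM (edgeR adjusted p = 0.004859). Cyp1a2 fell there by 1.94, from 285 ± 48.5 to 74.2 ± 39.3 CPM (edgeR adjusted p = 0.00684). In WT mice 1 of the 13 rose on the NASH diet (Slc1a4, also outside the naming rule) and 1 fell (Oat). In KO mice edgeR called none of them for the diet (0 of 13), and 2 had an unadjusted p under 0.05.

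Of 8 genes of the glucocorticoid and fasting response, 1 rose in WT on the NASH diet (Tsc22d3), beside 5.93% of all genes called. In KO chow against WT chow 1 rose (Pdk4) and 2 fell (Tsc22d3 and Zbtb16), beside 5.53%. Tsc22d3, a direct target of the glucocorticoid receptor, rose in WT with the NASH diet from 66.02 ± 17.4 to 189 ± 34.1 CPM (log2 fold change 1.51, edgeR adjusted p = 0.00717), and with sex as a term it was 1.12 (edgeR adjusted p = 0.1524). It fell by 1.43 in KO against WT on chow and by 1.63 on the NASH diet (edgeR adjusted p = 0.01156 and 0.003025). Zbtb16, another glucocorticoid-induced gene, fell by 2.72 in KO chow, from 37.7 ± 25.0 to 5.72 ± 3.91 CPM (edgeR adjusted p = 0.006483), and in KO mice it was higher on the NASH diet, at 59.4 ± 32.7 CPM (log2 fold change 3.38, edgeR adjusted p = 0.00468). Pdk4, a fasting-induced kinase, rose in KO chow by 3.76 (edgeR adjusted p = 0.003998), with libraries from 22.1 to 426 CPM. Tat was at -0.24 in KO chow against WT chow and at -0.05 for the diet in KO. On the NASH diet Fgf21 rose in KO against WT, and with the diet in KO Tsc22d3 rose as well. The differences between these genes and Tat were not tested.

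Of 12 hormonal regulators, Foxo1 rose in WT on the NASH diet by 1.37 and Creb3l3 and Gcgr fell. Klf15 fell in KO chow, Foxo1 and Nr3c1, which encodes the glucocorticoid receptor, fell in KO NASH against WT NASH, and Foxo3 rose with the diet in KO. Creb3l3, a fasting-induced factor of the cAMP response family, fell by 1.12 on the log2 scale, from 508 ± 119 to 234 ± 32.7 CPM (edgeR adjusted p = 0.002173). Foxo1 was 1.27 when sex was a term (edgeR adjusted p = 0.1043). Arntl, a core clock gene, rose in WT NASH from 2.91 ± 1.34 to 19.7 ± 7.21 CPM (log2 fold change 2.74, edgeR adjusted p = 9.405e-05) and fell by 1.42 in KO NASH against WT NASH (edgeR adjusted p = 0.008804), where Dbp and Ciart rose. Npas2, outside the naming rule, also rose in WT NASH. No hour of sampling is given in the sources used here, and its part in the members' values was not tested. In the fit of males only, which has 1 WT NASH library, the calls given here with values were lost for Hpd, Hgd, Glud1, Ftcd, Slc38a2, Apoa4, Asl, Foxo1, Creb3l3 and, on the NASH diet, Tsc22d3, but not all of the values shrank. Apoa4 was at -2.42 there, Asl at -1.58, Creb3l3 at -1.39 and Slc38a2 at -1.08, while Foxo1 in WT was at 0.72 and Hgd in WT at -0.34. Over the 14 libraries of positive slope calls were lost for Agxt, Apoa4, Creb3l3, Hpd in WT (-0.52) and, with the diet in WT and with genotype on chow, Tsc22d3. With only the groups compared they were lost for Hpd and Hgd in WT, Afmid and, on chow, Gulo.

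Over the 20 libraries the genes nearest to each member in pattern were chosen by Pearson's r of log2 CPM among 9037 genes, as a description with no test. The libraries share depth, sex and length slope, which such values also carry. Pigr had the closest neighbours, Iqgap2 (0.95), Sec14l4 (0.94) and Ceacam1 (0.94), and Hal had Rbm34 (0.92). For Cdh1 it was Prkar1a (0.85), for Cyp2f2 Ces3a (0.85), for Sdsl Wdr53 (0.83), for Tat Tcp11l2 (0.80), for Gls2 Gpt (0.80) and for Sds Crcp (0.79). Between members r was 0.73 for the neighbours Sds and Sdsl, 0.62 for Sds and Tat, 0.59 for Hal and Gls2 and 0.53 for Sds and Hal, and it was -0.56 for Sdsl and Pigr. With the length slope, r was 0.68 for Pigr, 0.50 for Cdh1 and 0.27 for Hal, and -0.55 for Sdsl, -0.42 for Sds and -0.31 for Tat.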

How the data were processed

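The authors deposited 1 table of raw read counts, whole numbers for each gene symbol in each library, in which 0 sample columns were unmapped. The diet is written HFD in the column names, which were read as the NASH diet because the other columns name chow. Reads were aligned with HISAT2 2.0.4 to GRCm38, per the submitters' processing notes. How reads were counted, with which annotation and strand setting, is not given in the sources used here. Intervals on the fold changes cover the spread between mice, and precision did not follow the counts of a gene. For the diet in WT the SE was 0.27 for Sdsl, which had the fewest counts of the members, and 0.39 for Tat.

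In R 4.3.3, edgeR 4.0.16 was run on the counts: filterByExpr (minimum count 10) kept 14440 genes, libraries were scaled by TMM, 1 model with 4 group coefficients was fitted to 20 libraries, and genes were called by the quasi-likelihood F test at a Benjamini-Hochberg adjusted p under 0.05 over all tested genes. CPM uses TMM-scaled library sizes. Adjusted p values printed for named genes come from that fit unless DESeq2 1.42.0 or limma 3.58.1 (voom) is named. The labels number separate mice in each group, and the numbers do not pair mice across groups. Sex was read from the counts (at least 100 counts over 4 Y-linked genes for male). The length slope used 9518 genes whose mean log2 CPM was 2 or more, each centred on its mean over the 20 libraries. Exonic lengths came from GENCODE M21.

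The members and lists were chosen with earlier results of these data known. Named genes are the members, Pck1, for each list and comparison up to the 2 most raised and 2 most lowered called genes (mean of 5 CPM or more), and the genes nearest to each member in pattern among those with that mean. Of the called list genes, those whose call no left-out library ended were given with values (also Hpd and Hgd), a choice made after seeing the data, and the others by name. The fit on the 14 libraries of positive slope, and the alternatives for list genes, were also added after seeing the data. The procedure was tested on simulated counts. The bile duct marker list as a whole is not reported here.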

Additional observations from a re-analysis of the deposited data

Results flagged for a closer look

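In 32 groups of 5 libraries (8 members in 4 groups), a library was set apart where its gap to the nearest other exceeded 0.71 of the group's range, which chance gives in about 1 in 20 groups. This held for Tat in KO chow replicate 4, at 3393 CPM with the other 4 at 996.8 to 1534 (gap 0.776 of the range). It also held for Cyp2f2 in KO NASH replicate 4, at 876.8 CPM with the other 4 at 328.4 to 448.9 (gap 0.78 of the range).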

How the results depend on the processing

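The count of members called in WT NASH against WT chow, 1, became 0 with sex as a term, with sex and length slope as terms and in males only, and 3 with limma voom. For KO chow against WT chow the 0 became 1 with sex, with sex and slope, in males only and with DESeq2, and 4 with voom. For KO NASH against WT NASH it became 1 with voom and over the 14 libraries of positive slope. For KO NASH against KO chow it became 1 with the slope, with sex and slope, with voom, with DESeq2 and over the positive-slope libraries, and for the interaction 3 with voom. The cause of these changes was not tested. Without 1 library the counts were 0 to 1 in the first pair of comparisons. Of 552 values of single members under 14 alternatives, 511 kept their side of the threshold and stayed close, and 45 changed sign, none of them called in either fit. Fitting only the groups compared gives no interaction value.

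Under a replicate block the counts were 1, 0, 0, 0 and 0, so no call on a member changed. The numbers were not taken to pair the mice: correlations of same-numbered mice's deviations ranged from -0.405 to 0.518, and for no number were all 6 over 0.1 (4 of 6 for replicates 1 and 4).

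Of 55 named calls in the lists, 21 were lost with sex as a term, 35 in males only, 21 with only the groups compared, 16 over the positive-slope libraries, 14 with KO NASH 1 and 5 summed, 13 with no low-count filter and 0 with DESeq2 or voom, and 31 were lost without at least 1 library. Males only moved the median of all genes to 0.195 in KO NASH against WT NASH. Sdsl, at 73 to 296 counts, is the member with the fewest counts.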
